A study of Mus musculus with 14 samples.

Results

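The GATA transcription factors were followed as 9 probe sets of 5 genes, namely Gata1, Gata2, Gata3, Gata4 and Gata6, among the 12422 probe sets and 8251 genes of the array. A probe set is a group of short probes designed against 1 transcript. A probe set was taken when the platform annotation gave it a single gene symbol and that symbol was 1 of the 5. Total RNA came from lung of 4 non-transgenic mice and from tumors of the lung of mice transgenic for SPC/c-Myc, in which the surfactant protein C promoter drives c-Myc in the respiratory epithelium. The tumors were 3 pools of small tumors of about 1 mm (3 to 4 tumors of 1 animal in each pool), 4 middle tumors of 4 to 5 mm and 3 large tumors of at least 10 mm, each from another animal. All mice had the CD2F1-(DBA/2xBalb/C) background and were 9 to 13 months old, and the transgenic mice were hemizygous. The tumors are papillary adenocarcinomas, whereas the control is whole lung with all its cell types, and the same 4 control lungs served every comparison.

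Values are MAS5 signals, a linear fluorescence intensity that the authors scaled to a target of 250 on each array. The study counted a gene as expressed at a signal of at least 70 together with a present call. Here the limit of 70 was used alone. The transgene was seen in the tumors, with Myc signals of 24.1 to 35.6 in control lung and of 325 to 2165 in the tumors. The summed signal of Sftpc and Sftpb, genes of alveolar type II cells, was 9933 to 18879 in control lung and 15523 to 20106 in the 9 tumors with a value for both. By contrast, the sum of 6 endothelial markers was 7938 to 9415 in control lung and 558 to 1555 in tumors. In such bulk samples fewer cells of a type and less RNA per cell cannot be told apart. Middle tumor replicate 3 had 25.2% of its values listed at 0 or nearly so, which were treated as missing. This concerned 3 of the GATA probe sets, and a marker sum leaves this array out where 1 of its markers is missing there.

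GATA factors are zinc finger proteins that bind a short DNA motif with GATA as its core. GATA1, GATA2 and GATA3 are best known from blood, with GATA1 in red cells, megakaryocytes and mast cells, GATA2 in stem cells, mast cells and endothelium, and GATA3 in T cells and innate lymphoid cells. GATA4 and GATA6 act in heart, gut and liver, and GATA6 is the family member known for its role in lung epithelium.

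Of the 9 probe sets, 5 reached a signal of 70 on at least 3 arrays and could be tested, 1 for each gene. In all tumors versus control lung 2 of them fell, those of Gata2 and Gata3, and 0 rose. Over the 8127 probe sets tested 20.8% were lower and 22.7% were higher in the same comparison (limma, Benjamini-Hochberg adjusted p under 0.05), so that a share is not informative for so few members. Both genes were also called in each tumor size. Of all tested probe sets 16.3% were lower in small, 16.2% in middle and 17.8% in large tumors, and 18.7%, 14.6% and 19.2% were higher. Gata3 reached 70 in control lung alone, so that it had to be lower in tumors. With signals under 70 set to 70, its change was the same (log2 -0.65) in each size. The calls of Gata3 by size are thus not separate results. Gata5, the remaining family member, is not among the 5 genes, and its probe set stayed between 2.65 and 17.8 on all arrays.

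**Figure D1:**
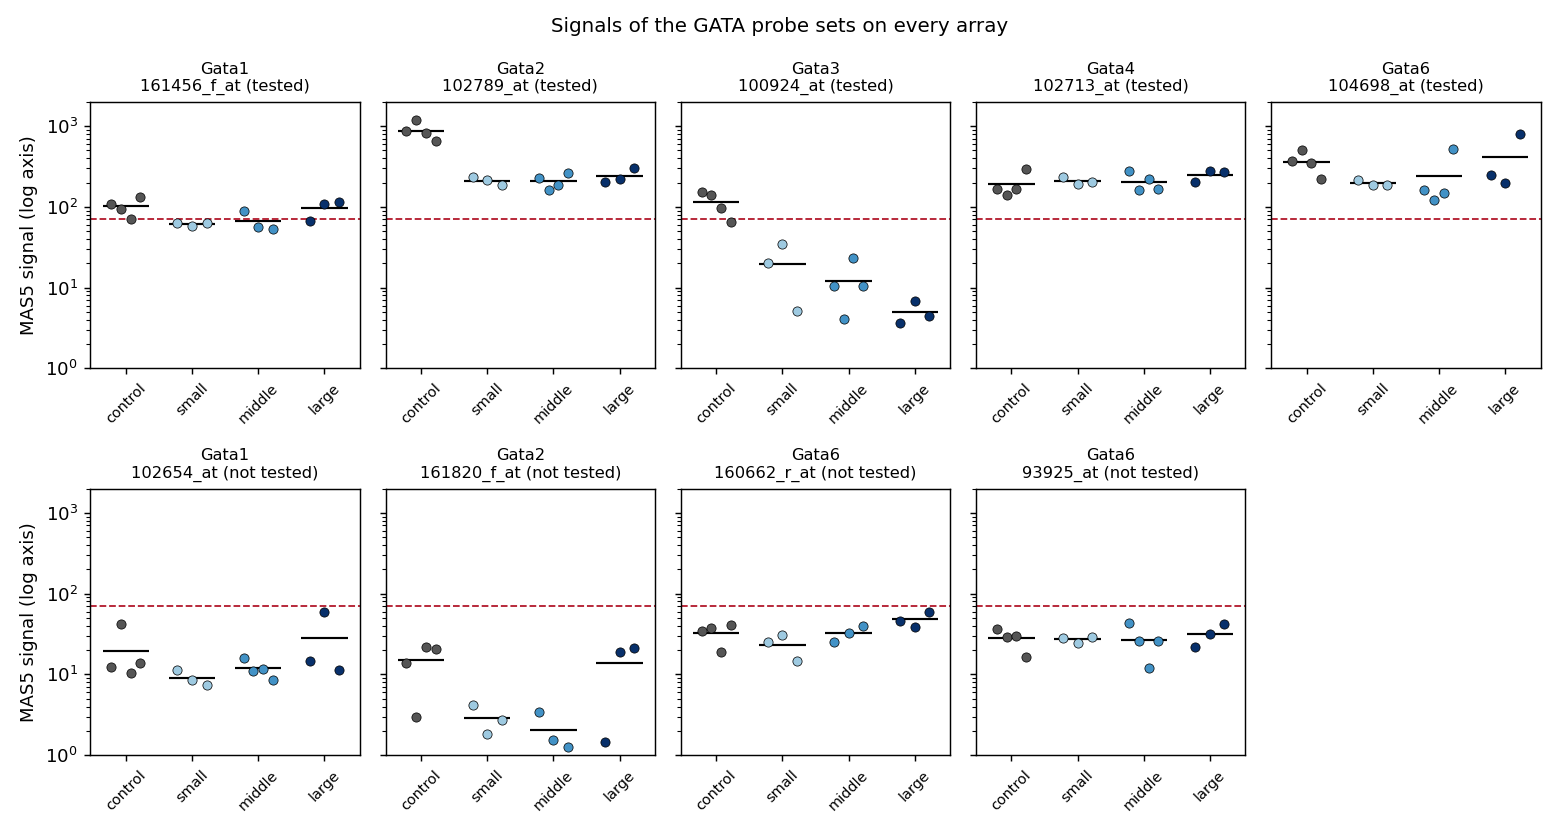
MAS5 signals (log axis) of the 9 GATA probe sets on each array of control lung and small, middle and large tumors; points are arrays, black bars are group means and the dashed line marks a signal of 70. Gata2 (102789_at) and Gata3 (100924_at) lie lower on all 10 tumor arrays than on any of the 4 control arrays, and the 4 probe sets of the lower row stay under 70 on all arrays with a value.

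The regions around the starts of Gata2 and Gata3 are given because these are the 2 genes that fell in the tumors. Each window runs from 250 bases before to 50 bases after a transcription start (RefSeq, build GRCm38.p6) and is written 5′ to 3′ on the strand of the gene. Gata2 has 2 annotated starts with a window. Capitals mark a GATA motif, which was searched on both strands as AGATAA and as its variants with T as the first base, G as the last base, or both.
Gata3, chr2:9878551-9878850, minus strand: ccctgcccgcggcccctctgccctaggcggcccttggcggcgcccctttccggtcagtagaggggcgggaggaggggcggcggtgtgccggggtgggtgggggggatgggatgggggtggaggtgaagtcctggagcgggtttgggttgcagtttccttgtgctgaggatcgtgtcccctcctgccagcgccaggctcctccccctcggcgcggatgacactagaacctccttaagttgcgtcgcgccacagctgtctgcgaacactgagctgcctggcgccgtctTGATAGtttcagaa
Gata2, chr6:88193641-88193940, plus strand: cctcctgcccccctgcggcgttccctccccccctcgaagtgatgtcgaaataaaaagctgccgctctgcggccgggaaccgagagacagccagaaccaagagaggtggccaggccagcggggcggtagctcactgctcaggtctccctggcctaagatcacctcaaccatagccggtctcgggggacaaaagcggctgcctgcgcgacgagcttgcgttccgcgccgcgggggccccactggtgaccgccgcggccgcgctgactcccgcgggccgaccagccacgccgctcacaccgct
Gata2, chr6:88198414-88198713, plus strand: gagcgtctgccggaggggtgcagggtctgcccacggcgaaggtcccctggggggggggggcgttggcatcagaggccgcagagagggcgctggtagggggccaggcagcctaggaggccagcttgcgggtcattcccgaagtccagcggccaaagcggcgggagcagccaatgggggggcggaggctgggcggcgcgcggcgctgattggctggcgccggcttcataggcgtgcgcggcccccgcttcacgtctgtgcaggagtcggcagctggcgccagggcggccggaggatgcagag
The Gata3 window holds 1 such motif, TGATAG, that begins at base 37 after the start, and neither Gata2 window holds one. The E-box CACGTG, the binding motif of c-Myc with its partner Max, is in none of the 3 windows. E-box-like motifs, which the paper describes as tolerated, were not searched here, and the paper searched longer promoter regions. Whether the windows hold a c-Myc site in its wider sense was not tested. Over 32851 promoter windows of this length 29.8% hold at least 1 of the GATA motifs and 7.15% hold the E-box.

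Gata2 fell about 4-fold in tumors of every size. Its probe set 102789_at measured 860.3, 1178, 820.1 and 661 in the 4 control lungs. The signals were 232, 213 and 185 in small, 229, 163, 186 and 261 in middle and 203, 219 and 301 in large tumors. Hence, the highest tumor signal was below the lowest control signal, as was true for 12.6% of all tested probe sets. The mean of the control lungs was 880 ± 217 (SD, n = 4), and that of all tumors was 219 ± 40.0 (SD, n = 10). The log2 fold change was -1.99 (SE 0.17, 95% interval -2.36 to -1.61, 3.96-fold lower), with an adjusted p of 5.34e-07 in limma. By size the log2 fold changes were -2.04 in small, -2.06 in middle and -1.86 in large tumors, with limma adjusted p of 1.08e-05, 3.43e-06 and 1.95e-05.

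The level of Gata2 did not separate the tumor sizes. The group means were 210 ± 23.4 (SD, n = 3), 210 ± 43.5 (SD, n = 4) and 241 ± 52.6 (SD, n = 3) in small, middle and large tumors, and these signals overlapped. The difference of small minus large tumors was -0.19 on the log2 scale, with a 95% interval from -0.70 to 0.33. The other Gata2 probe set, 161820_f_at, whose suffix marks probes shared within a family of sequences, stayed between 1.27 and 21.9 on the 13 arrays with a value. It was below the limit of 70 throughout and was not tested.

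Genes with a pattern like that of Gata2 were Frmd6, Cpe, Adgre5, Tgfbr3 and Il6st, with Pearson r of 0.975 to 0.981 over the 14 arrays. Cpe codes for carboxypeptidase E, Adgre5 for the adhesion receptor CD97, Tgfbr3 for betaglycan and Il6st for the receptor subunit gp130. Over the 10 tumors alone r was lower, with 0.35 to 0.71. All points share arrays and scaling, and r is given as a description.

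Endothelium and mast cells are cells that use GATA2. The endothelial sum is given above, and the sum of the 4 mast cell markers was 639 to 836 in control lung and 86.7 to 148 in the 9 tumors with all 4. The difference lies in Kit, the receptor for stem cell factor, which other cells express as well. Cpa3, Ms4a2 and Mcpt4, the other 3, were below 70 on all control arrays, and the means of Cpa3 (10.5) and Ms4a2 (10.9) in control lung were not above those in middle (21.2 and 17.3) and large tumors (24.7 and 20.6). Of the 6 endothelial markers Pecam1 did not pass the test, with means of 103 in control lung and 155, 128 and 158 in small, middle and large tumors. The part of these cells in the fall of Gata2 was not tested.

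Gata3 was near the limit in control lung and under it in all tumors. Its single probe set, 100924_at, measured 155, 141, 95.7 and 64.7 in the 4 control lungs. The tumor signals were 20.0, 34.6 and 5.15 in small, 10.5, 4.13, 23.3 and 10.5 in middle and 3.69, 6.90 and 4.52 in large tumors. No tumor signal reached the lowest control signal, and control lung replicate 4 was itself below 70. With all signals under 70 set to 70 the log2 fold change was -0.65 (SE 0.16, 95% interval -0.99 to -0.31), with a limma adjusted p of 0.00397. This is 1.57-fold on the floored scale, where all 10 tumors and 1 control lung lie at the floor, and the ratio of the mean signals as deposited was 9.26.

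The call for Gata3 rests on 3 control lungs, because only these passed 70, and a probe set that passes in control lung alone had to be lower in tumors. Without control lung replicate 1, 2 or 3 it no longer entered the test. The adjusted p by size was 0.0228 in small, 0.017 in middle and 0.0218 in large tumors (limma). In a fit with neither filter nor floor, which was added after the data had been seen, the log2 fold change was -3.57 with an adjusted p of 6.92e-05. The mean signals were 19.9 ± 14.7 (SD, n = 3), 12.1 ± 8.03 (SD, n = 4) and 5.03 ± 1.67 (SD, n = 3) in small, middle and large tumors. As all lie far below 70, no order among the sizes is read from them, and in the fit without floor the difference of small minus large tumors (log2 1.65) had an adjusted p of 0.63.

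The genes most like Gata3 over the arrays were Fgf7, Mmp9, Ms4a6c, Slfn4 and Nos3, with r of 0.983 to 0.997. Fgf7 codes for keratinocyte growth factor, a mesenchymal growth factor for alveolar epithelium, Mmp9 for a gelatinase of neutrophils and macrophages and Nos3 for the nitric oxide synthase of endothelium. In all of them the signal was lowest in replicate 4 among the control lungs, as in Gata3. For the tumors alone there is no r, since Gata3 is at the floor in all 10, so that the likeness comes from 4 arrays.

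The T cell markers summed here were low in all samples. Other T cell genes lay on both sides of 70 in control lung, with means of 276 for Zap70 and 60.4 for Cd28. The sum of Cd3e, Cd3g, Cd3d and Thy1 was 159 to 289 in control lung and 52.7 to 184 in tumors, and 2 of the 4 were below 70 on every control array. The part of T cells in the fall of Gata3 was not tested.

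Gata1 did not pass the test. The probe set 161456_f_at, again one with probes shared within a family, measured 109, 93.6, 71.4 and 132 in control lung. It was 63.8, 57.4 and 63.3 in small tumors, 89.4, 56.8 and 53.4 in the 3 middle tumors with a value, and 67.4, 109 and 114 in large tumors. The small tumors were all below control lung, whereas middle and large tumors overlapped with it. The log2 fold change in all tumors was -0.31 (SE 0.17, 95% interval -0.67 to 0.05), with a limma adjusted p of 0.151, and that of small tumors was -0.50 with 0.0833. Without control lung replicate 3, the lowest of the controls, these values became -0.47 with an adjusted p of 0.0369 and -0.66 with 0.0241 (limma).

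The other Gata1 probe set, 102654_at, was below 70 throughout, with 10.3 to 42.1 in control lung and 7.41 to 59.2 in tumors. The genes most like 161456_f_at were Daxx, Mageb3, Slc7a2, Ptprr and Trpm1 (r of 0.912 to 0.936 over 13 or 14 arrays, and 0.889 to 0.975 over the tumors alone). None of these is a gene of the red cell list. The erythroid markers Hba-a1, Alas2 and Slc4a1 summed to 7556 to 15507 in control lung and to 1175 to 5130 in tumors. Their part in the Gata1 signal was not tested. Whether the signal of 161456_f_at stands for Gata1 transcript was not tested either.

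Gata4 did not differ beyond its spread. Its probe set 102713_at measured 166, 142, 167 and 295 in control lung. The tumors gave 233, 191 and 206 in the small, 276, 162, 222 and 165 in the middle and 203, 275 and 269 in the large group. All groups overlapped, and the highest value of all was that of control lung replicate 4. The log2 fold change was 0.24 (SE 0.20, 95% interval -0.20 to 0.68), with a limma adjusted p of 0.373. In large tumors it was 0.42 with an adjusted p of 0.232, and without control lung replicate 4 it became 0.64 with 0.0409 (limma).

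The probe sets most like that of Gata4 were those of Col1a2, Rae1, Ctrb1, Miip and Sprr2g (r of 0.938 to 0.952 over 13 or 14 arrays). The first 4 carry the suffix r, which marks probe sets designed under relaxed rules. Ctrb1 codes for chymotrypsinogen, a pancreatic enzyme. Whether the Gata4 signal stands for Gata4 transcript was not tested, as present and absent calls were not used here.

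Gata6 was spread widely among the tumors and did not pass the test. Its probe set 104698_at measured 374, 503, 350.2 and 222 in control lung and 217, 185 and 184 in small tumors. The middle tumors gave 161, 122, 150.3 and 522, and the large tumors 251, 199 and 792. All small tumors were below control lung, and 3 of the 4 middle tumors were as well, while middle tumor replicate 4 and large tumor replicate 3 exceeded every control lung. The log2 fold change in all tumors was -0.56 (SE 0.39, 95% interval -1.39 to 0.27), with a limma adjusted p of 0.269. By size it was -0.83, -0.81 and -0.03 with adjusted p of 0.222, 0.21 and 0.971 (limma). Without middle tumor replicate 4 the change of middle tumors was -1.28 with an adjusted p of 0.0273 (limma).

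The other Gata6 probe sets were below 70 on every array with a value. 160662_r_at lay between 18.8 and 41.3 in control lung and between 14.5 and 59.7 in tumors, with its highest signal in large tumor replicate 3. For 93925_at the ranges were 16.3 to 36.9 and 11.9 to 43.1.

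The high Gata6 signals of these 2 tumors came together with other genes. The 5 genes most like Gata6 were Myrf, Slc11a1, Hpcal1, Hhex and Tspan8 (r of 0.87 to 0.93 over 14 arrays and 0.87 to 0.94 over the 10 tumors). Hhex is a homeobox factor of liver and foregut development, Tspan8 a tetraspanin of gut and cancer cells, Slc11a1 a metal transporter of macrophages and Myrf a membrane-bound transcription factor. Tspan8 was 647 in middle tumor replicate 4 and 548 in large tumor replicate 3. It was 27.7 to 206 in the other 8 tumors and 350 to 411 in control lung. For Hhex the values were 198 and 222, against 57.4 to 93.2 in the other 8 and 88.5 to 138 in control lung. All points share arrays and scaling, and the plot by array shows how far these 2 arrays stand from the other tumors.

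Within the list of gut and liver endoderm genes several were high in the same 2 tumors. The following genes were singled out after their values had been seen. Hnf4a, a nuclear receptor of liver and gut, was 67.2 in middle tumor replicate 4 and 147 in large tumor replicate 3, against 8.17 to 16.3 in the other 8 tumors and 6.13 to 9.02 in control lung. Vil1, the gene of the brush border protein villin, was 182 and 158, against 4.22 to 25.8 in other tumors and 1.91 to 3.28 in control lung. Lgals4, a galectin of the gut, was 499 and 429, against 106 to 216 in the 7 other tumors with a value. In control lung Lgals4 was 112 to 169.

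Of the 15 genes of the gut and liver list on the array 6 had their 2 highest tumor signals in these 2 tumors, namely Hnf4a, Foxa3, Alb, Afp, Vil1 and Lgals4. Over all 12422 probe sets this was so for 5.35%, and for 1 of 11 genes of the lung epithelial list. Cdx2, the intestinal homeobox factor, was 3.99 and 5.11 and thus below the limit in both. The counts are descriptive, as the 2 tumors were picked by their Gata6 signal, and 2 tumors of different size allow no comparison between groups.

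**Figure D2:**
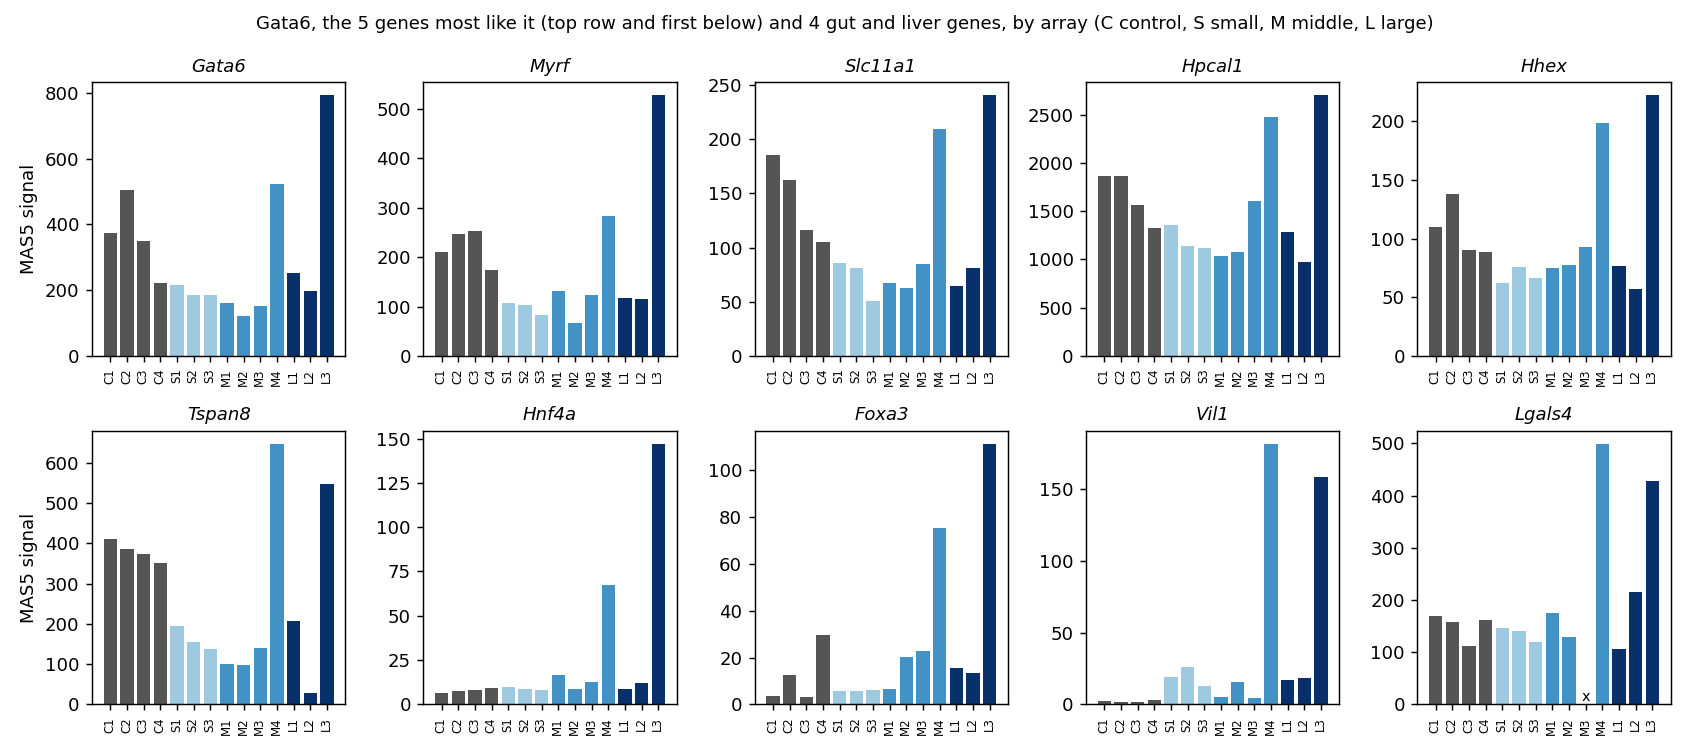
MAS5 signals (linear axis from 0) of Gata6, of the 5 genes most like it and of Hnf4a, Foxa3, Vil1 and Lgals4 on each of the 14 arrays; each bar is 1 array, its color gives the group and an x marks a missing value. Middle tumor replicate 4 (M4) and large tumor replicate 3 (L3) are the 2 highest tumors in the panels, whose genes were chosen by their likeness to Gata6 or after their values had been seen, while 9 of the 15 gut and liver genes on the array do not have their 2 highest tumor signals there.

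Comparisons between tumor sizes gave no call for a GATA probe set. In each of the 3 pairs of sizes limma called 0 of the 8127 tested probe sets (0%). At an unadjusted p under 0.05 there were 650 for small versus large, 503 for small versus middle and 812 for middle versus large tumors, and 0 of the 5 GATA probe sets was among them. The intervals remain wide for Gata6, where the difference of small minus large tumors was -0.80 with a 95% interval from -1.95 to 0.34 on the log2 scale.

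**Figure D3:**
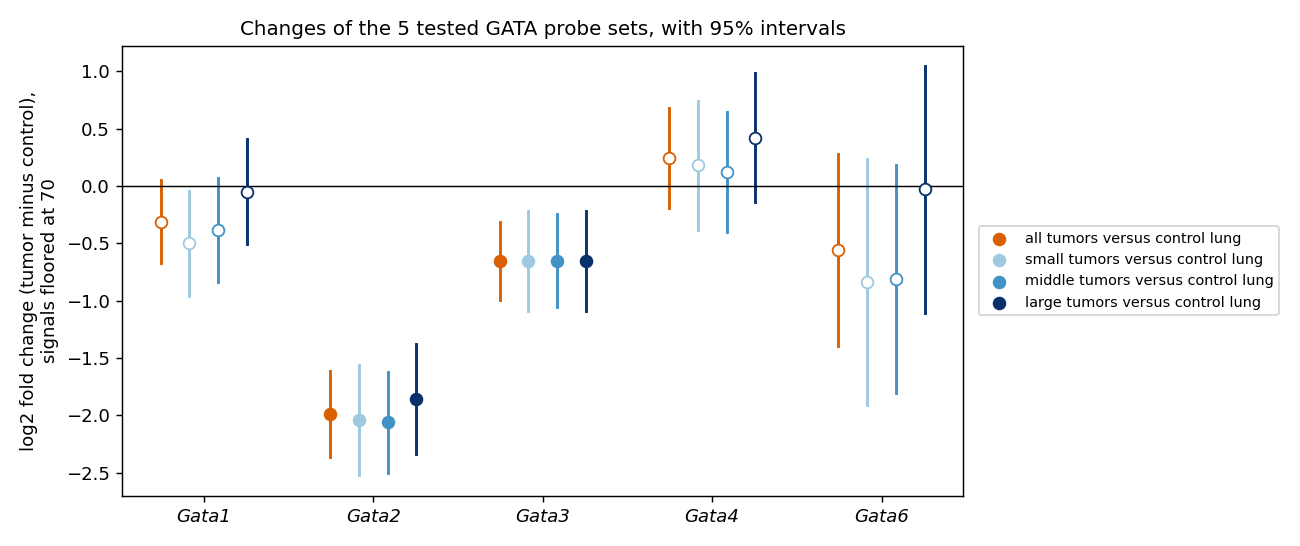
Log2 fold changes (tumor minus control lung, signals floored at 70) of the 5 tested GATA probe sets for all tumors and for each size; bars are 95% intervals from limma, and filled points have an adjusted p under 0.05. Gata2 lies near -2 in all 4 comparisons, and the intervals of Gata4 and Gata6 include 0. Gata3 lies at -0.65 in each, as all its tumor signals are at the floor.

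Among proteins that work with GATA factors, 11 of the 16 on the array could be tested, and 7 fell, 1 rose and 3 did not pass the test, where 20.8% of all tested probe sets were lower and 22.7% higher. Their median log2 fold change was -0.52, against 0.03 over all tested probe sets. Lmo2, the LIM protein that bridges GATA and SCL proteins in blood and endothelium, measured 513 to 683 in control lung and 95.2 to 204 in tumors, and changed by -2.01 (log2, adjusted p = 2.7e-06). Tal1, the SCL partner itself, was below 70 on all arrays, with a highest signal of 69.0.

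Further cofactors fell as well. On the log2 scale the change was -1.50 for Fli1, an ETS factor of endothelium and megakaryocytes, -1.22 for Ldb2 and -1.22 for Lyl1, a relative of Tal1. Fli1 and Lyl1 had means under 70 in each tumor size, against 205 and 167 in control lung. Their calls thus rest largely on control lung. Zfpm1, whose product FOG1 binds the N-terminal finger of GATA factors, changed by -0.90 (adjusted p = 0.00383). Its signals were 311 to 470.1 in control lung and 144 to 278 in 9 tumors, but 433 in large tumor replicate 3, which was also the tumor with the highest Gata6. Spi1, the myeloid factor PU.1, changed by -0.52 (adjusted p = 0.0353) and Mef2c by -0.30 (adjusted p = 0.0263). Mef2c was at the floor in all tumors and passed through control lung alone, so that it had to be lower. Crebbp, a histone acetyltransferase, rose by 0.47 (adjusted p = 0.0424), whereas Ldb1, Tcf3 and Runx1 did not pass the test (all by limma).

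Genes of the cell types in which GATA factors act were looked at as groups. Of 17 endothelial genes 15 fell and 0 rose, with a median log2 fold change of -2.57, against 20.8% lower and 22.7% higher over all tested probe sets. Nos3 was among the 15 and passed through control lung alone. Largest were the changes of Cldn5 (-4.24), a tight junction protein, Icam2 (-3.95), an adhesion molecule, and the angiopoietin receptor genes Tek (-3.83) and Tie1 (-3.49). Pecam1 and Hhex did not pass the test.

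Of 7 red cell genes 5 fell, with a median of -1.26, against the 20.8% of all tested probe sets that were lower. The 5 include Nfe2 (-0.76), a factor of red cells and megakaryocytes, which passed through control lung alone. The other 4 were Alas2 (-4.47), the erythroid enzyme of heme synthesis, Car2 (-2.65), a carbonic anhydrase, Hba-a1 (-2.40), an alpha globin, and Slc4a1 (-1.26). Slc4a1, the band 3 anion exchanger, had means of 36.1, 46.3 and 48.4 in small, middle and large tumors. Its mean in control lung was 215 ± 160 (SD, n = 4), and its call thus rests largely on control lung. The count of 5 is therefore not read against the 20.8%. All 3 mast cell and eosinophil genes that could be tested, of 13 on the array, fell in all tumors, where 20.8% of all tested probe sets were lower. They were Kit (-3.24), Hdc (-1.37), the enzyme of histamine synthesis, and Tpsb2 (-0.69), a tryptase. By size Tpsb2 was not called (limma adjusted p of 0.0542, 0.0776 and 0.215 in small, middle and large tumors). Hdc was called in large tumors alone, and its mean in middle tumors was 501 ± 353 (SD, n = 4), against 551 in control lung. The 10 others were not tested, and they did not all lie lower in tumors. Cma1, a chymase, had a mean of 68.4 in control lung and 12.5 in tumors, whereas Tpsab1, another tryptase, was 2.00 to 3.92 in control lung and 2.30 to 10.4 in 8 tumors, with 214 in middle tumor replicate 4 and 550 in large tumor replicate 3. Both genes were picked after their values had been seen.

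Of 6 tested T cell genes 4 fell, with a median of -0.38, where 20.8% of all tested probe sets were lower. These were Zap70 (-1.49), a kinase of the T cell receptor, Rora (-1.001), a nuclear receptor of innate lymphoid cells, Il7r (-0.40) and Thy1 (-0.35). Il7r had means of 46.2, 47.4 and 42.3 in small, middle and large tumors, against 95.8 in control lung. These tumor means lie below the limit for an expressed gene, and the call of Il7r thus rests largely on control lung. The count of 4 is therefore not read against the 20.8%. Cd3e and Cd4 did not pass the test.

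Of 11 cardiac genes 10 fell, led by Myl7 (-4.31), Myl4 (-3.89), Myh6 (-3.31) and Actc1 (-3.19), which code for proteins of the atrial sarcomere. For 7 of the 11 only control lungs passed the limit of 70, so that their count and their median are no support for a change of the list. For Gata4 the change in the same comparison was 0.24, as given above. Smooth muscle genes fell in 10 of 11 cases, where 20.8% of all tested probe sets were lower, with Myh11 (-3.13), Cnn1 (-2.75), Acta2 (-2.27) and Tagln (-2.16) at the head. Tpm1, a tropomyosin that other cell types express as well, rose by 0.65. Of the 11, 4 passed through control lung alone, Myh11 and Cnn1 among them, and had to be lower. The count of 10 is therefore not read against the 20.8%.

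Of 9 lung epithelial genes 4 rose, 1 fell and 4 did not pass the test, with a median of 0.38, where 22.7% of all tested probe sets were higher and 20.8% lower. Elf5 (2.55), an ETS factor of epithelium, Cebpa (1.55), a factor of alveolar type II cells, and Foxa1 (0.72) rose, and Pdpn (-3.07), a membrane protein of alveolar type I cells, fell. In the gut and liver list 2 of 6 tested genes fell, Sox17 (-2.64), which endothelium also expresses, and Dpp4 (-0.35), which with so few genes is not read against the 20.8% of all tested probe sets. The 2 other proteins with GATA-type fingers on the array, Gatad2a and Mta2, did not pass the test (0.02 and 0.27).

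**Figure D4:**
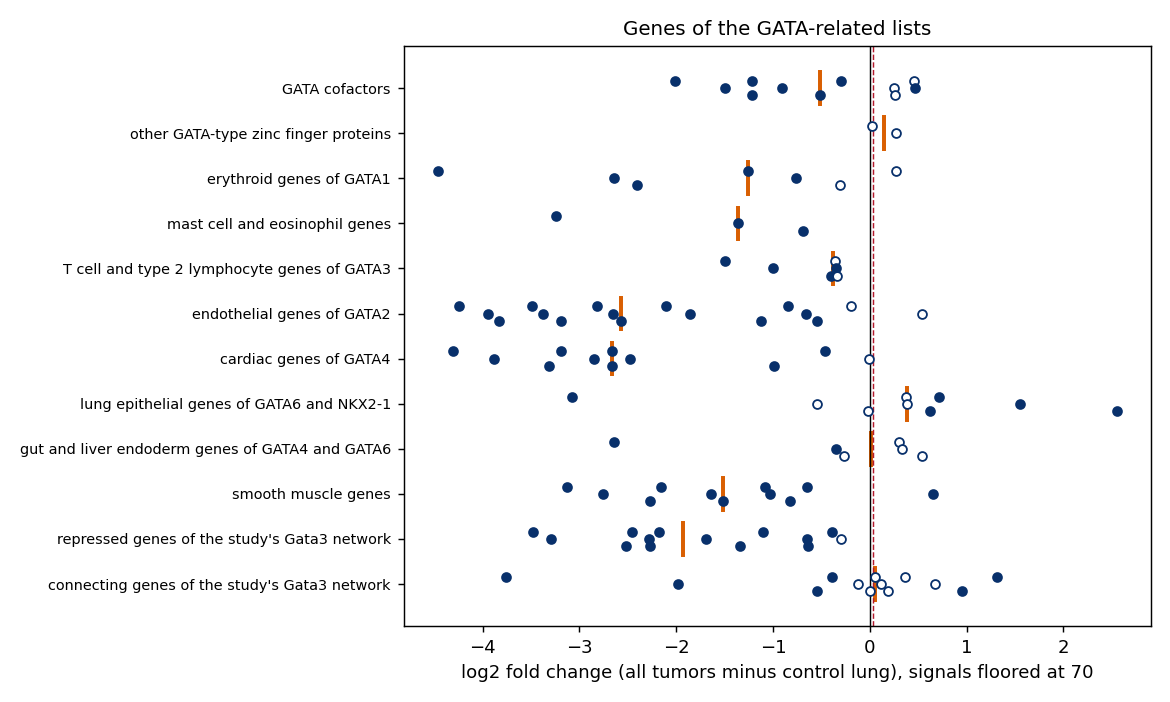
Log2 fold changes (all tumors minus control lung, signals floored at 70) of the tested genes in 12 lists; each point is a gene, filled where the limma adjusted p is under 0.05, orange bars are list medians and the dashed line is the median of all tested probe sets (0.03). Endothelial, cardiac and smooth muscle genes lie mostly below 0, and lung epithelial genes on both sides of it. Of these, 7 cardiac, 4 smooth muscle and 1 endothelial gene passed through control lung alone and had to be lower.

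The GATA motifs were also counted in the promoter windows of the list genes. At least 1 of the 4 motifs was found for 8 of 10 red cell genes with a window and for 9 of 11 mast cell and eosinophil genes, against 33% of 27025 genes. For endothelial genes it was 4 of 11 and for cardiac genes 10 of 18. The counts were 6 of 15 for T cell, 4 of 12 for lung epithelial and 5 of 11 for gut and liver genes. None of the 10 smooth muscle genes with a window held one. Most of these lists were drawn up around a GATA factor, that of red cells around GATA1, so that nothing is read from the shares. A motif in a window of this length is a match of letters and not a bound site.

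The study placed Gata3 at the head of a network of repressed genes. Its repressed genes came from these same samples, and its links from relations extracted from the literature. Of 14 such genes on the array, Gata3 included, 13 fell, with a median of -1.93, where 20.8% of all tested probe sets were lower. Foxf1, Gata3 and Meis1 passed through control lung alone and had to be lower. As the genes were chosen for lower signals in these tumors, this count is not independent evidence of the direction. The largest changes were those of Tcf21 (-3.48), a factor of lung mesenchyme, Klf4 (-3.30), Smad6 (-2.51), an inhibitor of BMP signaling, and Foxf1 (-2.45), a factor of lung endothelium and mesenchyme. Bnip2 did not pass the test. A GATA motif was found in the promoter windows of 3 of 12 of these genes (25%), against 33% of 27025 genes, and nothing is read from this count.

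Gata2 was among the genes that connect this network. Of 13 connecting genes tested 4 fell, 2 rose and 7 did not pass the test, with a median of 0.05. These shares are near the 20.8% lower and 22.7% higher of all tested probe sets, and nothing is read from them. Mapt (-3.76), coding for the protein tau, and Gata2 (-1.99) changed most, with Mapt passing through control lung alone, while Shh (1.31), the sonic hedgehog ligand, and Cdk4 (0.95), a kinase of the G1 phase, rose.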

How the data were processed

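RNA was hybridized to Affymetrix Murine Genome U74v2 arrays. The deposited values are a linear signal intensity per probe set, computed by the authors with MAS5 in the GCOS software and scaled to a target of 250 per array. For the present report 66 control probe sets were left out and values of 0 or below 1e-06 were treated as missing. Signals below 70 were set to 70 and put on the log2 scale, and a probe set was tested where 3 arrays or more reached 70. Genes said to have passed through control lung alone had no tumor signal of at least 70. Genes with few such tumor signals are not counted among them. Of the 12422 probe sets 10833 had 1 gene symbol, 396 several and 1193 none.

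Group means of control lung and 3 tumor sizes were fitted with limma 3.58.1 (trend = TRUE) in R 4.3.3. The 7 comparisons were read from 1 fit and p-values were adjusted by Benjamini-Hochberg over the 8127 probe sets tested. All tumors are the mean of the 3 sizes with equal weight. The code was tested on simulated data.

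Named were all GATA probe sets, the cofactors called, up to 4 called genes per list by size of change, called genes moving against most of their list, and the 5 genes with the highest Pearson r with each GATA gene. Genes singled out beside this rule are marked in the text. In lists the probe set with the highest mean signal stands for a gene. The genes and lists were chosen with earlier results of these data known.

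Alternatives were the floor, the filter, the scaling, the missing values, the methods' unpaired test, a replicate block and each replicate left out. Deviations of samples with the same replicate number had a median correlation of -0.04 over 19 pairs, against 0.008 over 54 pairs with different numbers. No pairing by number was thus seen, but such a correlation cannot show whether animals are shared. The methods describe the tumors as taken from individual animals. Each array is 1 animal, and precision is limited by how many arrays there are. The number of probe sets at or above 70 was 6796 to 7575 on 13 arrays and 5630 on that of middle tumor replicate 3. Present and absent calls and arrays of transgenic lung without tumor were not used here.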

Additional observations from a re-analysis of the deposited data

Results flagged for a closer look

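A single sample stood apart from its group by Dixon's criterion in 4 of 24 groups of GATA signals looked at, and chance alone marks about 1 in 20 groups. The Gata6 signal of middle tumor replicate 4 was 522 (104698_at), and the nearest other middle tumor was at 161. The Gata4 signal of control lung replicate 4 was 295 (102713_at), with the next control lung at 167. For Gata1 the probe set 102654_at was 42.1 in control lung replicate 2, with the nearest control lung at 13.8, and 59.2 in large tumor replicate 2, with the nearest tumor at 15.9. These Gata1 signals are below the limit of 70.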

How the results depend on the processing

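Gata2 kept its direction and its call in all tumors under each of the 27 alternatives, with log2 fold changes of -2.11 to -1.84. The number of GATA probe sets called versus control lung fell from 2 to 1, leaving Gata2, where 7 arrays had to reach 70 (all tumors and each size), without a filter (small and large tumors), with the methods' unpaired test after adjustment (each size) and with its unadjusted p in large tumors. In each case Gata3 was lost. With the unadjusted p of the methods' unpaired test in small tumors the count stayed at 2, but Gata3 was lost and Gata6 was called (log2 -0.83). When 1 replicate was left out, the count was 1 to 2 for all tumors and for small tumors and 1 to 3 for middle and for large tumors. The log2 fold change of Gata1 in all tumors was then -0.47 to -0.17, and passed the test without control lung replicate 3 (limma adjusted p = 0.0369). By size Gata3 lost its call in 6 of 23 alternatives in small, 1 in middle and 6 in large tumors, and in the other 4 alternatives it did not enter the test. With the replicate block 2 GATA probe sets were called in all tumors and in each size, as without it, and 1616 probe sets were lower and 1721 higher in all tumors, against 1687 and 1842. With neither filter nor floor, chosen once the data had been seen, there were 2 calls in each of these comparisons. The cause of these changes was not tested.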
